A study of Bos taurus with 40 samples.

Results

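The genes described here encode SR proteins, the serine- and arginine-rich splicing factors. Each carries an RNA recognition motif and a tail of serine-arginine repeats. The proteins bind exonic enhancers and recruit the U1 and U2 particles to the splice sites. Kinases of the SRPK and CLK families phosphorylate the tail and set where the proteins sit in the nucleus. Several SR genes also carry exons whose inclusion sends their own transcripts to nonsense-mediated decay, so their mRNA levels are partly set by splicing itself.

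The rule named 10 members, SRSF1 to SRSF7, SRSF9, SRSF10 and SRSF11, which were chosen by gene symbol alone among the 13570 symbols of the count tables. Of these, 9 were found. SRSF10 was not found by its symbol, and SFRS13A, its older symbol, is described apart and is not counted as a member. The family was singled out with earlier results of these data known, and SRSF2 was among the genes the study had picked for sex, so the sex difference of SRSF2 is a description of these libraries and not independent evidence.

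RNA-seq was carried out on 40 tissue samples of Korean cattle, 5 cows (female) and 5 bulls (male), slaughtered at over 22 months of age. Every animal gave a piece of liver, of fat from the abdomen, of the longissimus dorsi (a back muscle) and of the pituitary gland, which makes 5 samples per sex and tissue. The labels name no treatment and no further genotype for either sex. All 9 members had reads in all 40 samples and passed the filter of at least 1 read in any sample, as did 13148 genes in all.

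Levels are given as CPM, the reads of a gene per 1e+06 reads on genes, after TMM scaling over the 40 samples. They are compared between samples of 1 gene and not between genes, since no transcript lengths were used. The reads on genes ranged from 5173092 to 19165864 per library, with a median of 10005607. The tissues are pieces of whole organ, so fewer cells of a type and less RNA per cell cannot be told apart. The summed level of the hepatocyte markers was at least 119219 CPM in every liver sample and at most 476 CPM in any sample of another tissue. The summed markers of muscle fibre, adipocyte and anterior pituitary cells were likewise higher in every sample of their own tissue than in any other sample.

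Of the 40 libraries, 2 went against or away from the labelled sex. The library labelled liver of bull 3 held 1401 CPM of XIST, the RNA that silences an X chromosome in female cells, and 0 reads of the Y-linked genes DDX3Y, USP9Y and ZFY. The library labelled fat of bull 5 held 1.78 CPM of USP9Y against 28.1 to 34.1 CPM in the fat of the other bulls. The sex differences over the tissues of SRSF2, SRSF5, CLK2 and CLASRP are therefore also given without both libraries. Those of SRSF4 and SRSF11 are also given without the fat of bull 5. The differences and overlaps of the sexes within liver and within fat include these libraries, as do the marker comparisons there and over the tissues. Over all genes, edgeR sex calls in liver went from 23 to 61 without the liver of bull 3. In fat they went from 15 to 18 without the fat of bull 5.

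The first question was whether SR genes differ between cows and bulls, within a tissue (M1) or over the 4 tissues with tissue in the model (M2). Over the 4 tissues, SRSF2 and SRSF5 were lower in bulls, 1.35-fold and 1.70-fold (edgeR adjusted p = 0.00704 and 0.00724), and the other 7 members did not pass the test. With 2 of 9 members called, both lower in bulls, the background was 1.69% of all 13148 genes called in either direction and 1.35% called lower in bulls. Neither passed in a limma fit that tied the samples of 1 animal together (limma adjusted p = 0.102 and 0.198). That fit changed the test as well as the tie, and no limma fit without the tie was run. Within single tissues 0 of 9 members were called.

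**Figure D1:**
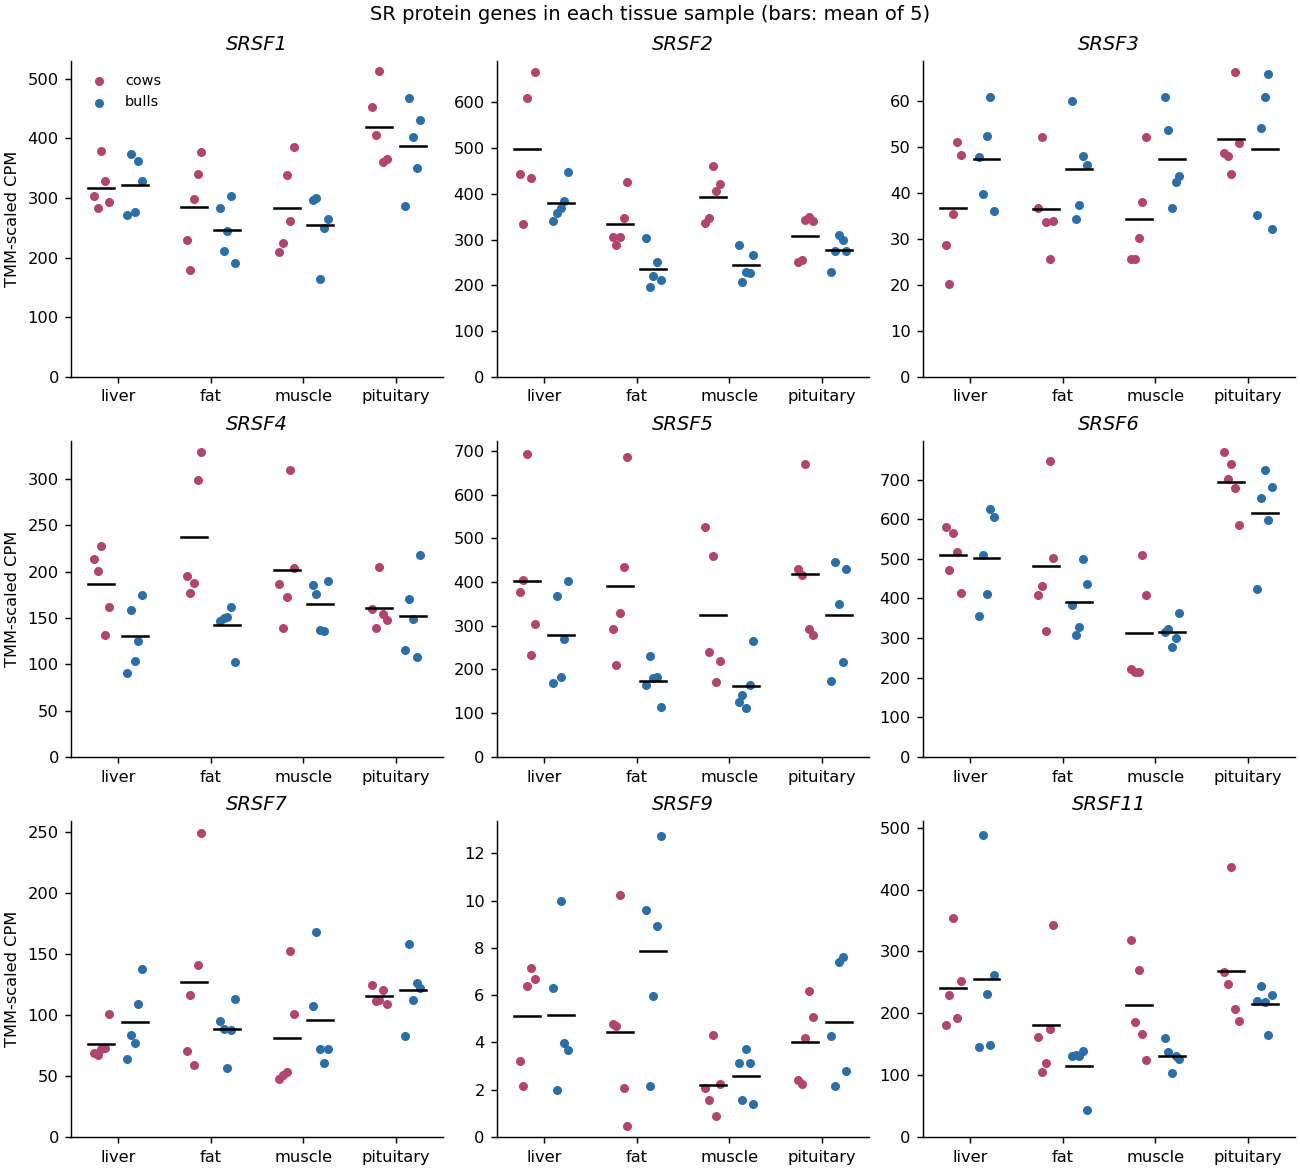
Levels of the 9 SR genes in TMM-scaled CPM (vertical axes, linear, starting at 0 and differing between panels) in the 5 cows and 5 bulls of each tissue, with a bar at the mean of 5. In muscle all 5 SRSF2 points of the cows, from 336 to 461 CPM, lie above the highest bull at 287 CPM, and SRSF6 is highest in the pituitary gland.

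SRSF2 encodes an SR protein that stays in the nucleus and is a usual marker of nuclear speckles. In muscle it measured 336, 346, 461, 406 and 422 CPM in cows 1 to 5 and 287, 208, 229.5, 227 and 266 CPM in bulls 1 to 5. Every cow was above every bull there, and SRSF2 was the only member whose sexes did not overlap in muscle, against 1.65% of all genes. In fat it measured 306.5, 288, 307, 348 and 427 CPM in cows and 303, 196, 221, 250.5 and 212 CPM in bulls. Bull 1 reached into the range of the cows, and the other 4 bulls were below all of them. In liver it measured 443, 335, 610, 436 and 667 CPM in cows and 341, 358, 370, 384 and 447 CPM in bulls. The sexes overlapped, and the highest values, in cows 3 and 5, had no counterpart among bulls. In the pituitary gland it measured 250.3, 255, 344, 349.8 and 342 CPM in cows and 229, 276, 311, 299 and 276 CPM in bulls, with wide overlap.

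The fitted SRSF2 difference over the 4 tissues was −0.43 on the log2 scale (SE 0.10, edgeR likelihood ratio test, adjusted p = 0.00704; quasi-likelihood test 0.0286), and its direction was the same in 4 of 4 tissues. By tissue the log2 differences were −0.68 (SE 0.25) in muscle, −0.52 (SE 0.29) in fat, −0.38 (SE 0.29) in liver and −0.15 (SE 0.19) in the pituitary gland, with edgeR adjusted p-values of 0.221, 0.755, 0.884 and 0.812. As means over an animal's 4 tissues of log2(CPM + 1) minus the tissue mean, each of the 5 cows was above all 5 bulls. The margin was small, with cow 2 at −0.08 and bull 5 at −0.15. These means include the liver of bull 3 and the fat of bull 5. The share of all genes so separated in animal means was not counted, so the separation only describes these animals. M2 treats 40 samples of 10 animals as independent. With the animal as a replicate block (limma, voom) the log2 difference was −0.42 and the adjusted p 0.102. With 1 mean per animal (limma) it was −0.42 with an adjusted p of 0.477. Without the liver of bull 3 and the fat of bull 5 it was −0.42 (edgeR adjusted p = 0.0127).

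SRSF5, an SR protein that moves between nucleus and cytoplasm, had the largest fitted sex difference of the 9 members. In fat it measured 292, 209.7, 329, 433.5 and 686 CPM in cows and 164, 230.2, 181, 184 and 114 CPM in bulls. Cow 2 alone fell within the range of the bulls. In muscle it measured 527, 240.1, 459, 172 and 219.8 CPM in cows and 124.5, 141, 111, 165 and 264 CPM in bulls. Cows 1 and 3 stood far above all bulls, while the other 3 cows lay inside the bulls' range. In liver it measured 377, 404, 693, 234 and 303 CPM in cows and 168, 369, 183, 269 and 402 CPM in bulls. In the pituitary gland it measured 431, 417, 669.8, 294 and 279.6 CPM in cows and 174, 446.5, 351, 218 and 429 CPM in bulls. Cow 3 was the highest of all animals in both of these tissues, and the rest overlapped.

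The fitted SRSF5 difference over the 4 tissues was −0.77 on the log2 scale (SE 0.18, edgeR adjusted p = 0.00724; quasi-likelihood test 0.033), with the same direction in 4 of 4 tissues. The log2 differences were −1.17 (SE 0.37) in fat, −1.02 (SE 0.38) in muscle, −0.50 (SE 0.35) in liver and −0.37 (SE 0.30) in the pituitary gland. With the animal as a replicate block the difference was −0.73 and its adjusted p 0.198, and with animal means −0.73 and 0.461 (limma). The call was also lost without cow 3 (−0.62, edgeR adjusted p = 0.0651), without bull 1 (−0.66, 0.0756) and without bull 4 (−0.74, 0.056). Without the 2 doubtful libraries it was −0.71 (edgeR adjusted p = 0.0242).

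The share of reads that fell outside annotated genes differed between the animals. Averaged over an animal's 4 tissues, this share was 46.9% in cow 1, 42.2% in cow 2 and 50.3% in cow 3, 38.5% and 37.3% in cows 4 and 5, and 37.9% to 40.4% in the bulls. When the share entered M2 as a term, SRSF5 rose by 0.07 on the log2 scale per percentage point (edgeR adjusted p = 0.000716) and SRSF11 by 0.04 (adjusted p = 0.0398), while the other 7 members were not called for it. Against these 2 of 9, 25.2% of all genes were called for the term, so such calls were not particular to the family. With the term in the model the sex difference of SRSF5 was −0.46 (adjusted p = 0.147) and that of SRSF2 was −0.45 (adjusted p = 0.0132, edgeR). The estimate for SRSF2 was as large with the term as without it, and that for SRSF5 was smaller and no longer passed. Over all genes the sex calls went from 222 without the term to 113 with it. The largest shares were those of cows 1 to 3, so share and sex are partly confounded here. The part of the share in either sex difference was not tested.

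**Figure D2:**
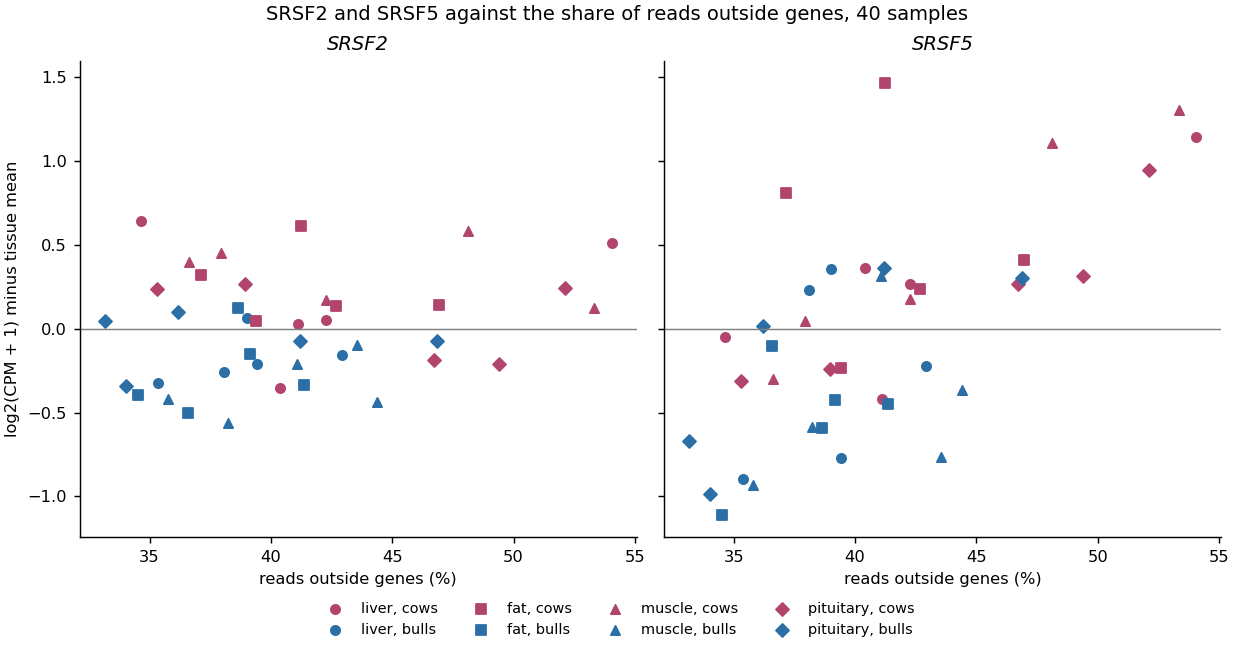
SRSF2 (left) and SRSF5 (right) in 40 samples, as log2(CPM + 1) minus the mean of the tissue (vertical axis), against the percent of reads outside genes (horizontal axis), with cows and bulls in colour and tissues by symbol. The slope, fitted with tissue and sex in the model and not to the plotted points, is 0.07 per percentage point for SRSF5. For SRSF2 it is −0.0037, and the largest shares, up to 54.0%, belong to cows.

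SRSF4 and SRSF11 followed the same direction without passing the test. SRSF4, one of the members with a long serine-arginine tail, measured 195.5, 177, 188, 298.5 and 329 CPM in the fat of cows and 146, 150.4, 150.5, 162 and 102 CPM in that of bulls. Every cow was above every bull, which made SRSF4 the only member with no overlap in fat, against 1.29% of all genes. In liver and in the pituitary gland the sexes of all 9 members overlapped, where 0.548% and 1.34% of all genes had none. Over the 4 tissues the SRSF4 log2 difference was −0.41 (SE 0.12, edgeR adjusted p = 0.0549), with the same direction in 4 of 4 tissues. It passed with DESeq2 (adjusted p = 0.0409) but not with the quasi-likelihood test (0.0867) or with the animal as a block (limma, 0.347). Of the 10 fits that each dropped an animal it passed in 2, without cow 5 (0.0483) and without bull 5 (0.0111), and the others gave edgeR adjusted p-values up to 0.19. Without the fat library of bull 5 alone the adjusted p was 0.092.

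SRSF11, a factor that binds U2AF and can act as a repressor, measured 319, 187, 269, 167 and 124 CPM in the muscle of cows and 160, 137, 104, 131 and 127 CPM in that of bulls. Of the 5 cows, 4 were above all bulls. Its log2 difference was −0.71 (SE 0.31) in muscle, 0.11 (SE 0.37) in liver, where bull 2 held the highest value of all at 488 CPM, and −0.40 (SE 0.17, edgeR adjusted p = 0.201) over the 4 tissues.

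The remaining members gave no call for sex. SRSF3, the smallest SR protein and an adaptor for mRNA export, had a log2 difference of 0.27 over the 4 tissues (95% interval 0.02 to 0.53, edgeR adjusted p = 0.263). SRSF9 measured 0.472 to 12.8 CPM over all samples and had a log2 difference of 0.34 (95% interval −0.18 to 0.85, adjusted p = 0.536). SRSF7, which also takes part in mRNA export, had a difference of 0.02 (−0.30 to 0.35). For SRSF1, the founding member, it was −0.11 (−0.33 to 0.10), and for SRSF6 it was −0.12 (−0.36 to 0.12).

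**Figure D3:**
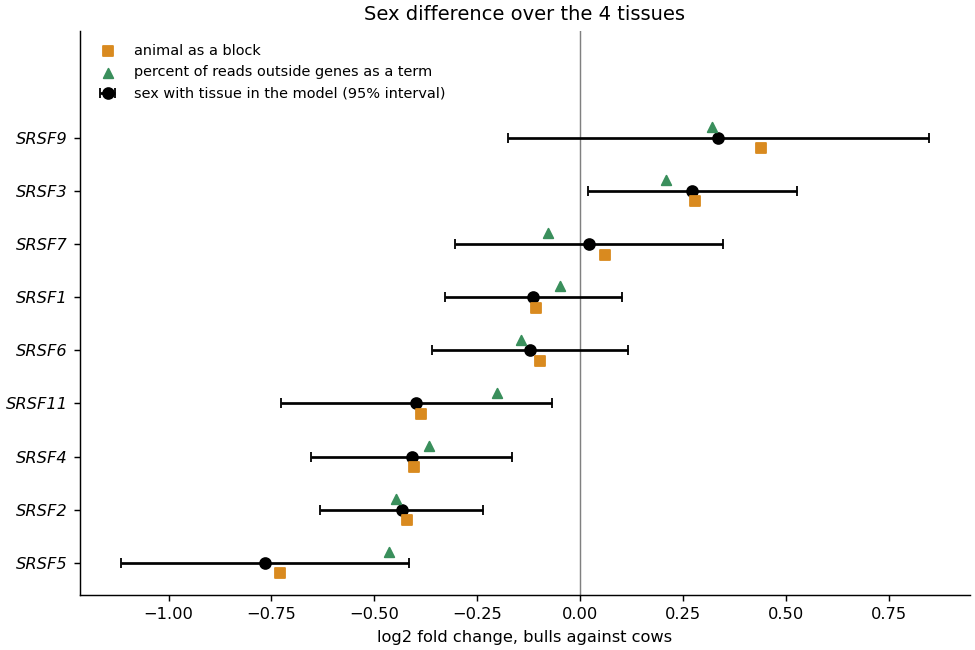
Fitted log2 difference between bulls and cows over the 4 tissues (horizontal axis) for each SR gene, with its 95% interval in black, the estimate with the animal as a block (squares) and that with the percent of reads outside genes as a term (triangles). The black point of SRSF5 lies at −0.77 and its triangle at −0.46, whereas the 3 estimates for SRSF2 lie between −0.45 and −0.42.

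Within tissues, edgeR called 0 of 9 members for sex in liver, fat, muscle and pituitary gland, against 0.175%, 0.114%, 0.517% and 0.745% of all genes. The quasi-likelihood test and DESeq2 also called 0 members in each. At an unadjusted p under 0.05 there were 0 members in liver, 2 in fat (SRSF4 and SRSF5), 3 in muscle (SRSF2, SRSF5 and SRSF11) and 0 in the pituitary gland. Without cow 4, SRSF5 passed in muscle (edgeR adjusted p = 0.0307). The interaction of sex and tissue was called for 0 of 9 members, against 0.335% of all genes (edgeR). At an unadjusted p under 0.05 there were 0 members, beside 1128 of all 13148 genes. The larger sex differences in fat and muscle than in liver and pituitary gland were therefore not shown to differ between tissues.

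Over the members, 6 of 9 fitted M2 differences were negative, with a median of −0.12 on the log2 scale, beside 56.0% negative and a median of −0.04 over all genes. Markers of other cell types were read beside these differences. Of 7 leukocyte markers 1 was called over the 4 tissues and 2 had an unadjusted p under 0.05, beside 2193 of all 13148 genes. All 7 fitted leukocyte differences were negative, with a median of −0.46 on the log2 scale. CD3E, a subunit of the T cell receptor complex, was lower (−1.10, edgeR adjusted p = 0.0197). The summed level of the 7 leukocyte markers ranged from 101 to 272 CPM in cow muscle and from 42.6 to 151 CPM in bull muscle. In fat it ranged from 237 to 684 CPM in cows and from 217 to 685 CPM in bulls. In liver it was 490 to 874 CPM in cows and 502 to 726 CPM in bulls, and in the pituitary gland 63.0 to 132 and 47.7 to 152 CPM. No leukocyte marker was at 0 in every sample of a tissue. In muscle, where CD14 was called lower in bulls, 4 of the 7 had an unadjusted p under 0.05, beside 1445 of all 13148 genes. The median log2 difference of the 7 was −1.08 there. In fat, 0 of 6 fibroblast markers were called by edgeR, but 4 had an unadjusted p under 0.05, beside 905 of all 13148 genes. All 6 fitted differences were positive in fat, with a median of 1.05. In muscle all 6 were negative, with a median of −0.62 and 0 called. In liver 3 of the 6 were negative (median −0.02). In the pituitary gland 0 were negative (median 0.46), and COL1A1 was called higher in bulls. Of 5 muscle fibre markers, 4 had an unadjusted edgeR p under 0.05 in liver and 4 in the pituitary gland, beside 980 and 1219 of all genes. Their median log2 difference was 1.88 in both tissues, and MYH2 was called higher in the pituitary glands of bulls. In fat 4 of the 5 were negative (median −0.45). CGA, the alpha subunit of pituitary hormones, was higher in bulls over the 4 tissues (1.20, edgeR adjusted p = 0.0432). The part of these cell types in the SRSF2 and SRSF5 differences was not tested.

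The next question was how the members differ between tissues. SR genes were read in all tissues, and no member differed by more than 2.57-fold between its highest and lowest tissue mean. SRSF6 and SRSF1 had their highest means in the pituitary gland and SRSF2 in liver, and SRSF9 had its lowest mean in muscle. The 6 pairs of tissues gave 20 called differences in 6 of the 9 members. SRSF3, SRSF4 and SRSF7 gave none. Between 60.4% and 65.6% of all genes were called in each pair.

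SRSF6, whose protein binds purine-rich and other exonic enhancers, separated the tissues most, with 5 of 6 pairs called. It ranged from 425 to 769 CPM with a median of 681 in the pituitary gland, from 355 to 626.5 with a median of 513 in liver, from 307 to 746 with a median of 421 in fat, and from 214 to 510 with a median of 308 in muscle. The pituitary gland was above muscle by 1.05 on the log2 scale (SE 0.17, edgeR adjusted p = 4.16e-09), with 9 of 10 pituitary samples above all muscle samples. It was above fat by 0.59 (SE 0.17, adjusted p = 0.00121), and muscle was below liver (−0.68, SE 0.17, adjusted p = 0.000173) and below fat (−0.46, adjusted p = 0.013). In the order of its levels, liver and fat did not differ beyond their spread (adjusted p = 0.262).

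SRSF1 acts in splicing as well as in mRNA export and translation. It had a median of 405 CPM in the pituitary gland, 315 in liver, 264 in fat and 263 in muscle. The pituitary gland was above fat by 0.60 on the log2 scale (SE 0.15, edgeR adjusted p = 0.000221) and above muscle by 0.58 (SE 0.15, adjusted p = 0.000367). Muscle and fat did not differ (0.02, 95% interval −0.28 to 0.32). The smaller steps of SRSF1 and SRSF6 from liver to pituitary gland, 0.33 and 0.37, passed narrowly (adjusted p = 0.0481 and 0.0462). Neither passed with DESeq2 or the quasi-likelihood test. When each animal was dropped in turn, SRSF1 missed in 9 fits of 10 and SRSF6 in 7 of 10, with edgeR adjusted p-values up to 0.0984 and 0.121.

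SRSF2 had a median of 409.9 CPM in liver, 312 in muscle, 296 in fat and 288 in the pituitary gland. Fat (−0.63, SE 0.14, edgeR adjusted p = 3.1e-05), muscle (−0.48, SE 0.14, adjusted p = 0.00155) and pituitary gland (−0.56, SE 0.14, adjusted p = 0.000177) were all below liver. Among these 3 tissues the adjusted p-values were 0.393 to 0.715. SRSF11 was lower in fat than in liver (−0.80, SE 0.24, adjusted p = 0.00182) and higher in the pituitary gland than in fat (0.73, SE 0.24, adjusted p = 0.00412). Its medians were 230.1 CPM in liver, 224 in the pituitary gland, 149 in muscle and 132 in fat. Liver and pituitary gland did not differ (−0.06, 95% interval −0.53 to 0.40).

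SRSF9 was the member with the fewest reads per library. It ranged from 0.887 to 4.32 CPM with a median of 2.15 in muscle, and its medians were 5.37 in fat, 5.14 in liver and 4.24 in the pituitary gland. Muscle was below fat (−1.33, SE 0.37, edgeR adjusted p = 0.00104) and below liver (−1.12, SE 0.38, adjusted p = 0.00633), and the pituitary gland was above muscle by 0.89 (SE 0.38, adjusted p = 0.0295). The last of these did not pass without cow 4 (adjusted p = 0.0993), bull 3 (0.0515) or bull 4 (0.0684). SRSF9 also had the widest spread within a tissue, 27.0-fold between the highest and lowest fat sample.

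SRSF5 was higher in the pituitary gland than in muscle (0.70, SE 0.25, edgeR adjusted p = 0.0109), which did not pass without bull 2 (0.0521). Its step from liver down to muscle (−0.55, adjusted p = 0.048) and that of SRSF11 (−0.58, adjusted p = 0.0263) were lost without bull 2 (0.137 and 0.176) and bull 3 (0.079 and 0.074). For SRSF5 that step was also lost without cow 2, cow 3, bull 1 or bull 4 (0.0764, 0.0726, 0.0663 and 0.0896). The step of SRSF11 from muscle up to pituitary gland (0.51, adjusted p = 0.048) was lost in 7 of 10 such fits, with adjusted p-values up to 0.113. It was also lost with the animal as a term of the edgeR model (edgeR adjusted p = 0.0504).

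Counts by pair were as follows. Between fat and liver 2 of 9 members were called, both lower in fat, against 65.1% of all genes. Between muscle and liver 5 were called, all lower in muscle, against 62.8%. Between pituitary gland and liver 3 were called, 2 higher and 1 lower in the pituitary gland, against 65.4%. Between muscle and fat 2 were called, both lower in muscle, against 60.4%. Between pituitary gland and fat 3 were called, all higher in the pituitary gland, against 65.6%. Between pituitary gland and muscle 5 were called, all higher in the pituitary gland, against 64.9%. These comparisons share samples.

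The scaling mattered for these steps. Scaling by library size alone moved the median log2 change of all genes from 0.13 to 0.82 between fat and liver, from 0.12 to 0.92 between pituitary gland and liver, and from 0.03 to 0.89 between pituitary gland and muscle. On that scale the SRSF2 changes from liver to fat and from liver to pituitary gland turned positive, 0.10 and 0.28. Relative to the median change of all genes in the same fit, all 20 called changes kept their direction under TMM, RLE and library-size scaling. SRSF2 in fat against liver, for example, was 0.76 below that median with TMM scaling and 0.71 below it with library sizes alone.

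The make-up of the family's reads does not depend on the scaling. SRSF2 took 20.6% ± 4.0 (SD, n = 10) of the reads of the 9 genes in liver, 19.4% ± 3.2 in muscle, 16.5% ± 2.0 in fat and 13.0% ± 2.4 in the pituitary gland. SRSF6 took 28.7% ± 2.3 in the pituitary gland and 19.6% ± 5.2 in muscle. SRSF4, which gave no call in CPM, took 11.2% ± 1.9 in muscle and 10.6% ± 1.2 in fat but 7.34% ± 1.4 in liver and 6.83% ± 0.93 in the pituitary gland. The share of SRSF5 differed little, from 14.4% ± 6.7 in muscle to 15.7% ± 3.5 in the pituitary gland, but within muscle it ran from 8.08% to 28.1%.

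**Figure D4:**
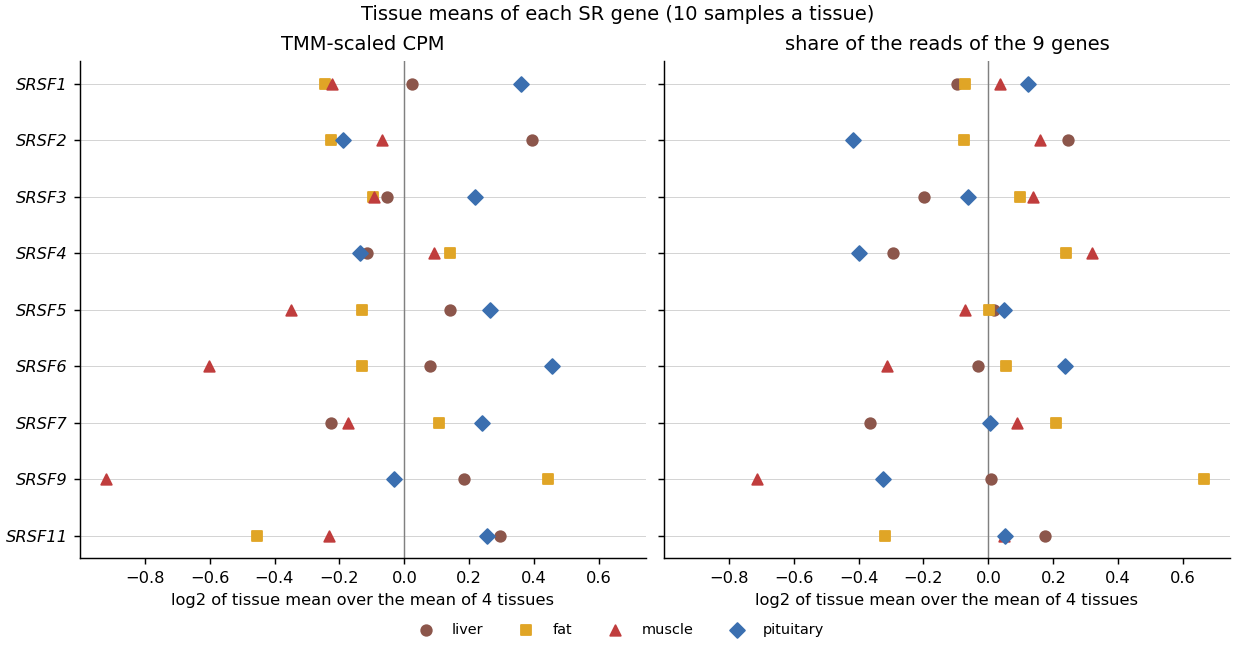
Tissue mean of each SR gene as log2 of its ratio to the mean of the 4 tissue means (horizontal axes), for TMM-scaled CPM (left) and for the share of the 9 genes' reads (right), 10 samples a tissue. Muscle is lowest for SRSF6 and SRSF9 in both panels and liver is highest for SRSF2 in both, while the pituitary point of SRSF2 moves to the lowest place in the right panel.

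Likeness between members was measured after each tissue's mean was taken off, with sex differences left in. Over the 40 samples, which come from 10 animals and share library and depth across genes, Pearson's r was 0.77 between SRSF5 and SRSF11, 0.71 between SRSF4 and SRSF5, and 0.66 between SRSF6 and SRSF7. SRSF3 and SRSF9 ran the other way, with r of −0.55 between SRSF3 and SRSF5 and −0.62 between SRSF4 and SRSF9, and 0.44 between themselves. Of the 36 pairs, 25 were positive and 11 negative, and the median r was 0.21. These values are descriptions and were not tested.

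**Figure D5:**
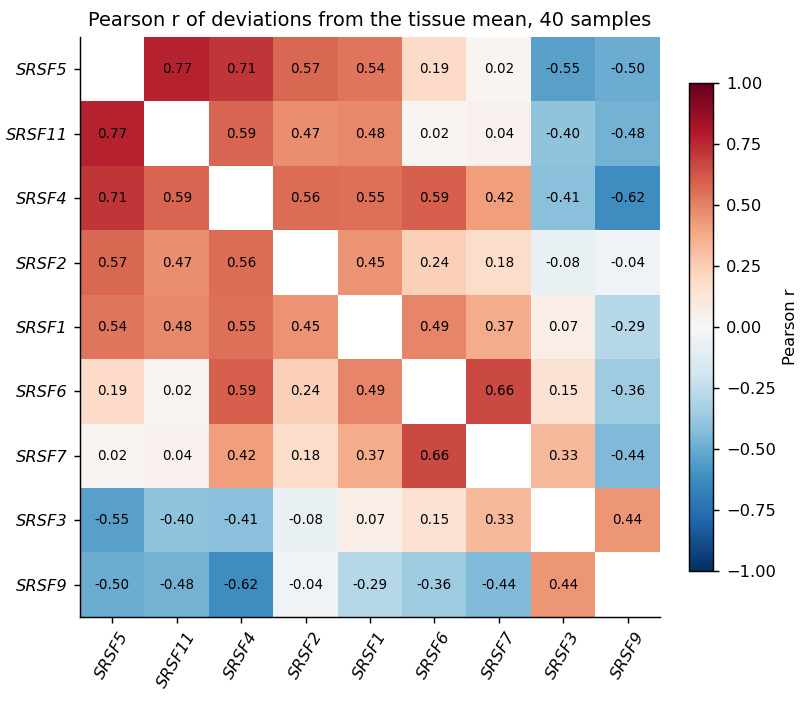
Pearson's r between SR genes over 40 samples, after subtracting each gene's tissue mean of log2(CPM + 1), in colour and figures. SRSF1, SRSF2, SRSF4, SRSF5 and SRSF11 form a block of positive values between 0.45 and 0.77, and SRSF3 and SRSF9 are negative against SRSF4, SRSF5 and SRSF11.

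Among the 8865 genes outside the family with at least 1 CPM on average in every tissue, HNRNPH1 was the most like the mean of the members, with r of 0.78 over the 40 samples. It encodes an hnRNP protein that binds G-rich RNA and regulates splicing. KIAA0907 (0.73), ARGLU1 (0.71), RBM39 (0.70), PNN (0.69), GCFC1 (0.68), PRPF3 (0.67) and EIF2AK1 (0.67) followed. RBM39 and PNN, both splicing proteins with serine-arginine repeats, stood in the list of SR-like genes as well, and PRPF3 encodes a protein of the tri-snRNP. HNRNPH1 was in the hnRNP list. None of the 8 was called for sex over the 4 tissues.

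Other genes of the splicing apparatus were read against the same 1.69% of all genes called for sex over the 4 tissues. Of 17 SR-like and SR-related genes measured, 1 was called over the 4 tissues, CLASRP, a serine-arginine protein that binds CLK kinases, which was lower in bulls (1.46-fold, edgeR adjusted p = 0.0432). Of 8 genes for SR protein kinases and their importer, 1 was called, CLK2, a kinase that acts on SR proteins, lower in bulls (1.29-fold, adjusted p = 0.0359). CLK2 and CLASRP did not pass the quasi-likelihood test (0.0642 and 0.0753), with the animal as a block (limma, 0.239 and 0.322) or without the liver of bull 3 and the fat of bull 5 (edgeR, 0.0602 and 0.056). Of 26 hnRNP genes, 22 genes of U1, U2 and U2AF, 23 tissue splicing regulators and 12 genes of nonsense-mediated decay and the exon junction complex, 0 were called by edgeR. At an unadjusted p under 0.05 these lists held 2, 5, 3 and 1 genes, beside 2193 of all 13148 genes. The quasi-likelihood test also called 0 in these lists, and DESeq2 called 1, SF3B1 of the U2 particle. Among the tissue regulators, RBM24 was called lower in the livers of bulls and RBM38 was called for the interaction of sex and tissue (edgeR), and both are named after their values were seen. The median log2 differences of these 6 lists, in the order named, were −0.14, −0.22, 0.03, 0.12, −0.10 and −0.03, beside −0.04 over all genes and −0.12 over the SR members.

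Between pituitary gland and muscle, where 64.9% of all genes and 5 of 9 SR genes were called, the calls were 5 of 17 SR-like genes, 6 of 8 for kinases and importer, 13 of 26 hnRNP genes, 9 of 22 for U1, U2 and U2AF, 21 of 23 tissue regulators and 7 of 12 for decay and exon junction. The genes named next had the largest ratios between tissue means in their lists and do not stand for the lists. SRPK3, the muscle form of the SR protein kinases, had a mean of 170 CPM in muscle (SD 59.4, n = 10) and 0.375 CPM in liver (SD 0.213). Among the tissue regulators ESRP1, an epithelial factor, had a mean of 65.4 CPM in the pituitary gland against 1 read over all 10 fat samples, CELF3 had 116 CPM there against 4 reads over the 10 liver samples, and RBFOX1 had 109 CPM in muscle against 0.146 CPM in fat. BCLAF1 (3.98-fold) and SON (3.63-fold), both SR-related, were higher in muscle than in fat, as was DYRK1A (4.11-fold), a kinase that phosphorylates splicing factors. In nonsense-mediated decay, SMG1, the kinase of UPF1, had a mean of 872 CPM in muscle (SD 681) and 44.7 CPM in fat (SD 60.2).

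The reads of SFRS13A, the older symbol of SRSF10, whose protein represses splicing when dephosphorylated, gave no call for sex (−0.13, 95% interval −0.35 to 0.10, edgeR adjusted p = 0.598). It was highest in liver, with a median of 126 CPM, and lower in fat (−0.43), muscle (−0.90) and pituitary gland (−0.46), with adjusted p-values of 0.0152, 1.5e-07 and 0.00815. Near neighbours were read because it is not stated whether the counting used strand. METTL23, which overlaps SRSF2, measured 2.39 to 10.9 CPM and was not called for sex (0.32, edgeR adjusted p = 0.271). MFSD11, the other neighbour of SRSF2, was not called over the 4 tissues (−0.69, adjusted p = 0.103) and was lower in the pituitary glands of bulls (−1.09, adjusted p = 0.0349). LRRC40, beside SRSF11, had a difference of −0.16 (adjusted p = 0.636).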

How the data were processed

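The submitters' processing notes name Trimmomatic, Bowtie2, TopHat2, SAMtools and HTSeq, and the authors aligned the reads to the UCSC bosTau7 cattle genome. The strand setting of the counting is not given in the sources used here. The deposited tables hold raw counts per gene symbol, 1 per sample. Rows that name no gene stayed out of library sizes (reads outside genes 33.2% to 54.0%, reads on a row named null at most 1.58%). Genes with at least 1 read in any sample were tested with edgeR 4.0.16 (R 4.3.3), negative binomial models and likelihood ratio tests after TMM scaling, with Benjamini-Hochberg adjustment over all 13148 genes and a threshold of 0.05. Alternatives used limma 3.58.1 and DESeq2 1.42.0. The edgeR steps were tested on data simulated without an animal effect. There the likelihood ratio test, kept because the study used it, made more false calls than its threshold allows. Quasi-likelihood values are therefore given beside the sex calls, though that test was not run on the simulated data. The p-values weigh a difference against the spread between these samples. In the main fits over the 40 samples, samples of 1 animal are treated as independent.

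Samples were grouped by labelled sex and tissue, and the number shared by sample titles was taken to mark the 4 tissues of 1 animal. Deviations from group means correlated with a mean r of 0.18 (−0.52 to 0.62) over 60 pairs of the same animal. Over 240 pairs of other animals of the sex the mean r was −0.05 (−0.57 to 0.55). An r above 0.1 was found in 39 of the 60 pairs and in 57 of the 240. No libraries agreed within sampling noise. Of the pairs within a tissue, the closest was the liver of cow 4 and the doubtful liver labelled bull 3, with a chi-square per gene of 15.8. The next closest was the pituitary glands of cows 1 and 2, with 24.1. Why they were alike was not tested.

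The members and lists were chosen with earlier results of these data known. Named genes are the members, up to 4 genes per list called for sex, up to 3 per list with the largest ratio between tissue means, the 8 genes most like the members, 4 genes of X and Y, and markers. METTL23, MFSD11, LRRC40 and SFRS13A were added by position or synonym from RefSeq (ARS-UCD2.0).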

Additional observations from a re-analysis of the deposited data

Results flagged for a closer look

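In 3 of 72 groups of 5 samples, 1 sample lay apart from the other 4 by Dixon's test, and chance flags about 1 in 20 groups. In the fat of bull 5, whose Y-linked genes were also low, SRSF4 measured 102 CPM against 146 to 162 CPM in the other bulls and SRSF11 measured 42.8 CPM against 130 to 140 CPM. In the liver of cow 5, SRSF7 measured 101 CPM against 66.9 to 73.0 CPM in the other cows. Without the fat of bull 5 the sex differences over the 4 tissues were −0.37 for SRSF4 (edgeR adjusted p = 0.092) and −0.34 for SRSF11 (0.284). The cause was not tested.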

How the results depend on the processing

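Tied to animals in limma fits, M2 called 0 members instead of 2. This held with the animal as a replicate block and with means per animal, where only 8 and 6 genes of all were called. These fits also changed the test from edgeR to limma, and both changes cannot be told apart. With the percent of reads outside genes as a term M2 called 1. In fits without 1 animal it called 1 to 3. Within muscle such fits called 0 to 1. Among tissue pairs, fits without 1 animal called 2 to 4 between fat and liver, 3 to 6 between muscle and liver, 1 to 3 between pituitary gland and liver, and 3 to 7 between pituitary gland and muscle. Between pituitary gland and liver DESeq2, the quasi-likelihood test, RLE factors and the fits without the doubtful libraries called 1 instead of 3. Library sizes alone called 6 between fat and liver, 7 between pituitary gland and liver, 9 between muscle and fat, 5 between pituitary gland and fat and 9 between pituitary gland and muscle. Among changes called with it or with TMM, it reversed SRSF1 (0.44), SRSF2 (0.10), SRSF3 (0.70) and SRSF6 (0.48) in fat against liver, SRSF2 (0.28) and SRSF11 (0.78) in pituitary gland against liver, SRSF1 (−0.80), SRSF2 (−0.66) and SRSF11 (−0.57) in muscle against fat, and SRSF2 (0.84) and SRSF4 (0.77) in pituitary gland against muscle. Called under neither scaling, SRSF5 in fat against liver (0.35), SRSF7 in muscle against liver (−0.11) and SRSF9 in pituitary gland against liver (0.62) also changed sign. The block changed no other count by over 1.5 times. Block correlation was 0.10. A gene as scarce as SRSF9 limits what can be seen at this depth.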
